A study of Homo sapiens with 2 samples.

Results

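TBX2, TBX3, TBX5, TBX18 and TBX20 are the T-box transcription factors best known from the heart and its pacemaker, and they were taken by gene name as 5 of the 36601 genes counted. T-box factors bind DNA through a shared domain that recognises a short element around the letters AGGTGT. In the heart TBX5 acts mainly as an activator of chamber genes together with partners such as NKX2-5 and GATA4. TBX20 also regulates chamber genes. TBX2 and TBX3 act as repressors at many of the same genes and keep the pacemaker and the atrioventricular canal from taking on a chamber programme, while TBX18 marks the precursors that build the head of the sinoatrial node. The sinoatrial node is the tissue that sets the heartbeat.

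The data came from 1 culture of HES2, an established line of human embryonic stem cells, differentiated towards sinoatrial node-like pacemaker cells (SANLPC in the labels). Dissociated cells were labelled with the barcoded anti-human CD34 antibody TotalSeq A0054, sorted for live single cells by DAPI staining, and sequenced as an RNA library (polyA RNA) and an antibody-tag library of the same cells, 2 libraries in all. No other genotype, treatment or time is named for either library, and the design text names native sinoatrial node cells, which were not analysed here. All cells shared 1 line and 1 culture, so there were no replicates, no test was possible, and every interval below is a 95% interval for counting error only.

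Of 14829 barcodes, 11211 passed the limits of at least 1000 genes, at most 25% mitochondrial UMIs (unique molecular identifiers, which count molecules) and at most 35000 RNA UMIs. Cells with at least 2000 CPM (counts scaled to a common total) of the troponin gene TNNT2 were called cardiomyocytes. They numbered 5516 (49.2%), with a median of 16209 RNA UMIs. Cells with under 1000 CPM of TNNT2 and at least 2000 CPM of the collagen gene COL1A1 were called fibroblast-like and numbered 617, with a median of 18537. Cells low in both genes with at least 5 UMIs summed over VTCN1, GATA3, CLDN4 and WNT6 were called epithelial-like and numbered 4046, with a median of 17452.5. The other 1032 cells were left unclassed.

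The class names were checked against markers that the rules did not use. The 8 cardiomyocyte markers summed to 38734 CPM in cardiomyocytes, 1015 CPM in fibroblast-like and 902 CPM in epithelial-like cells. The 8 fibroblast markers summed to 775, 17719 and 5358 CPM in the same order, and the 10 epithelial markers to 1273, 1674 and 10197 CPM. Each named class was thus highest for the sum of its own list, although fibroblast and epithelial markers were also present in the other classes. Of the fibroblast markers LUM went the other way, at 448 CPM in fibroblast-like and 684 CPM in epithelial-like cells. DCN stood at 1287 and 529 CPM there, but its UMIs were found in 83.0% and 89.1% of those cells. Markers of epicardium summed to 158 CPM in fibroblast-like and 110 CPM in epithelial-like cells and were lower in cardiomyocytes, those of endothelium to 2.47, 34.8 and 2.09 CPM in the 3 classes with CDH5 at 0 in each, and those of smooth muscle to 3452, 3327 and 530 CPM. Those of neural cells summed to 2.43, 147 and 0.794 CPM, of which STMN2 alone gave 146 CPM in fibroblast-like cells, where SOX2 was at 0. Their part in the results below was not tested. Shares of cells with a UMI were computed after each cell had been thinned at random to 5000 RNA UMIs, which left 5227 cardiomyocytes, 597 fibroblast-like and 3978 epithelial-like cells and left out 289, 20 and 68 shallower ones.

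The starts of 2 chamber genes that both groups of factors are known to regulate are shown here because their transcripts differed between cardiomyocytes with and without several of the factors. NPPA encodes atrial natriuretic peptide, and GJA5 encodes connexin 40, the fast-conducting gap junction protein of the atria. The 250 bases before each annotated start, on the minus strand of chromosome 1 and 5′ to 3′, are those of RefSeq on GRCh38.p14: NPPA at chr1:11847784-11848033, the outer GJA5 start at chr1:147773352-147773601 and the inner GJA5 start at chr1:147760603-147760852. Capitals mark the T-box core AGGTGT or its reverse complement ACACCT.
NPPA: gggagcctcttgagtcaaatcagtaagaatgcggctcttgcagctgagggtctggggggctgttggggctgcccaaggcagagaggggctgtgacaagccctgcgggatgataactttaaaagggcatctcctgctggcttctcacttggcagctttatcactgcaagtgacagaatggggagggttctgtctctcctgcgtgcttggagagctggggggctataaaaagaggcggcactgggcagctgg
GJA5 outer start: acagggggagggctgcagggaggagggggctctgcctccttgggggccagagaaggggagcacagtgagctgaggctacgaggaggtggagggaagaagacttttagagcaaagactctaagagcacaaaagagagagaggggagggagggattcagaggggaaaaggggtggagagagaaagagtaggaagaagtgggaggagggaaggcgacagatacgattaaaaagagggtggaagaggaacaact
GJA5 inner start: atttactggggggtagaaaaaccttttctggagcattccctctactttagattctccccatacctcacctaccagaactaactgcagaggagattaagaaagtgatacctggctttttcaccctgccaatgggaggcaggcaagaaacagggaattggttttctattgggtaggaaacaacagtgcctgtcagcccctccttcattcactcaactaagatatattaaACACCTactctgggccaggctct

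The core was found once, as ACACCT from -23 to -18 before the inner GJA5 start, and not in the other windows. On either strand the core was present in 3360 of 35116 windows of the same length (9.57%), and the longer element AGGTGTGA or TCACACCT, which contains it, in 276 (0.786%). A match is a description of letters and not of binding, and counts taken near the 3′ end of transcripts do not tell which GJA5 start was used. Of 11 genes looked up, 7 had an entry. TBX2, TBX3, TBX2-AS1 and NKX2-5 had none.

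The repressors came first. TBX2 (ENSG00000121068, chromosome 17, 61399843 to 61409466, GRCh38.p14) stood at 33.5 CPM in cardiomyocytes (32.3 to 34.7), 50.9 CPM in fibroblast-like cells (46.9 to 55.2) and 1.24 CPM in epithelial-like cells (0.995 to 1.53). It was the member that was higher in fibroblast-like cells than in cardiomyocytes, with a cardiomyocyte to fibroblast-like ratio of 0.658 (0.603 to 0.720). After thinning, a TBX2 UMI was present in 13.8% of cardiomyocytes, 22.1% of fibroblast-like and 0.679% of epithelial-like cells, against 30.9%, 47.6% and 1.93% without thinning.

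TBX3 (ENSG00000135111, chromosome 12, 114670255 to 114684175) stood at 193 CPM in cardiomyocytes (190 to 195), 79.5 CPM in fibroblast-like cells (74.5 to 84.8) and 81.9 CPM in epithelial-like cells (79.9 to 84.1). Cardiomyocytes were 2.35-fold above epithelial-like cells (2.28 to 2.42) and 2.42-fold above fibroblast-like cells (2.27 to 2.59). The last pair of classes could not be ordered, with a fibroblast-like to epithelial-like ratio of 0.970 (0.904 to 1.04). A TBX3 UMI was present in 44.3%, 27.0% and 31.4% of thinned cells of the 3 classes, and in 65.6%, 56.4% and 63.7% without thinning, so the unthinned share of epithelial-like cells was close to that of cardiomyocytes although the CPM was not.

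TBX5 (ENSG00000089225, chromosome 12, 114353911 to 114408442), the activator mutated in Holt-Oram syndrome, stood at 149 CPM in cardiomyocytes (147 to 152), 15.3 CPM in fibroblast-like cells (13.1 to 17.7) and 3.58 CPM in epithelial-like cells (3.16 to 4.04). Cardiomyocytes were 9.76-fold above fibroblast-like cells (8.42 to 11.4) and 41.6-fold above epithelial-like cells (36.8 to 47.3). A TBX5 UMI was present in 49.9%, 7.71% and 1.68% of thinned cells, and in 81.7%, 20.6% and 5.14% without thinning.

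TBX18 (ENSG00000112837, chromosome 6, 84732496 to 84764598) stood at 85.6 CPM in cardiomyocytes (83.7 to 87.5), 6.21 CPM in fibroblast-like cells (4.86 to 7.82) and 2.40 CPM in epithelial-like cells (2.05 to 2.78). The cardiomyocyte ratios were 13.8 (10.9 to 17.6) and 35.7 (30.7 to 41.8). Thinned shares were 32.7%, 2.68% and 1.18%, against 64.2%, 9.89% and 3.91% without thinning.

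TBX20 (ENSG00000164532, chromosome 7, 35202430 to 35254100), a regulator of chamber growth and contraction genes, was the sparsest member. It stood at 10.4 CPM in cardiomyocytes (9.77 to 11.1), 1.12 CPM in fibroblast-like cells on 13 UMIs (0.597 to 1.92) and 0.237 CPM in epithelial-like cells on 17 UMIs (0.138 to 0.379). The cardiomyocyte ratios were 9.29 (5.41 to 17.5) and 44.0 (27.3 to 75.8). A TBX20 UMI was present in 5.32%, 1.01% and 0.126% of thinned cells, and in 14.5%, 2.11% and 0.420% without thinning.

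**Figure D1:**
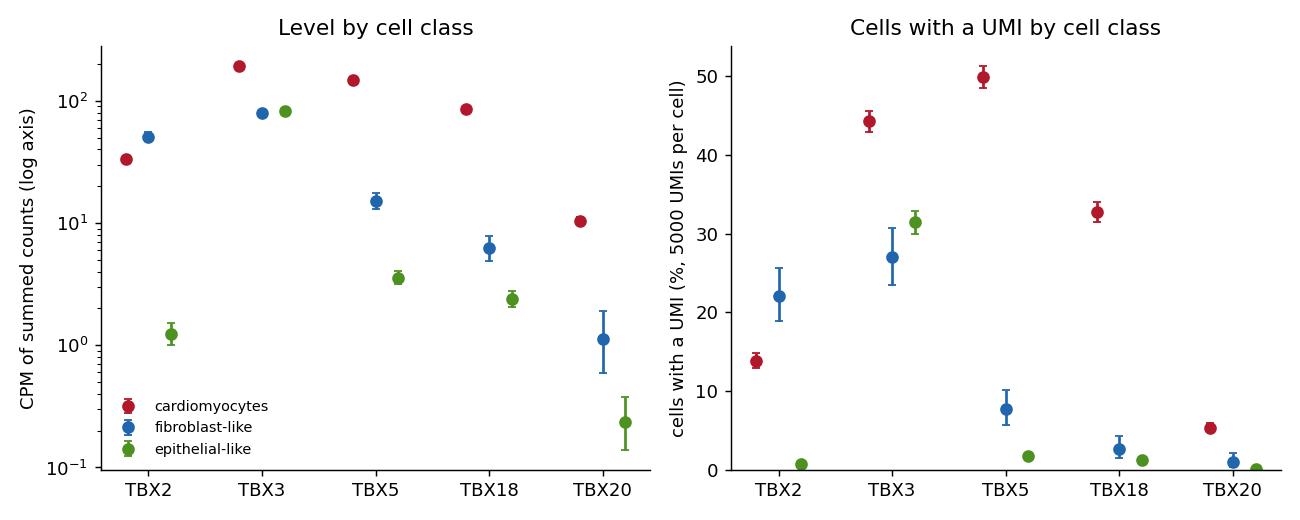
Left, CPM of summed counts on a log axis; right, percent of cells with a UMI after thinning to 5000 UMIs per cell; points are cell classes and bars are 95% counting intervals. TBX2 is highest in fibroblast-like cells (50.9 CPM), TBX3 stays near 80 CPM outside cardiomyocytes, and TBX5, TBX18 and TBX20 are highest in cardiomyocytes.

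All 5 members were at least 2-fold higher in cardiomyocytes than in epithelial-like cells, a size reached by 13.7% of the 10013 genes that had 10 CPM or more in either class, while 16.2% were lower by as much. Against fibroblast-like cells 4 of the 5 were, beside 11.6% of 9972 genes higher and 14.3% lower by that size, and TBX2 was the exception, higher in fibroblast-like cells without reaching that size. Against epithelial-like cells TBX2, TBX5, TBX18 and TBX20 met the minimum only through cardiomyocytes, as did TBX18 and TBX20 against fibroblast-like cells. TBX20 exceeded it by little. The members are also known heart genes, so these counts describe the set and carry no test.

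Transcripts released into the suspension give low counts in cells that do not make them, so each member's level outside cardiomyocytes was set beside that of the 8 cardiomyocyte markers. In epithelial-like cells those markers stood at 2.09% (MYL7) to 3.74% (ACTN2) of their cardiomyocyte level. TBX2 stood at 3.70%, TBX5 at 2.40%, TBX18 at 2.80% and TBX20 at 2.27%, all within that range, and no expression was read from them there. TBX3 stood at 42.5%, far above it. In fibroblast-like cells the markers stood at 2.20% to 5.54%. There TBX18 stood at 7.25%, TBX5 at 10.2%, TBX20 at 10.8%, TBX3 at 41.3% and TBX2 at 152%, each above every one of the 8 markers.

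Across all kept cells ordered by TNNT2, the members took different courses. TBX5 stood at 5.41 CPM in cells under 250 CPM of TNNT2, 63.3 CPM between 1000 and 2000, and 161 CPM from 8000. TBX18 stood at 4.79, 45.5 and 89.9 CPM in the same ranges, and TBX20 at 0.548, 5.95 and 11.8 CPM. Between 4000 and 8000 these 3 stood at 157, 89.4 and 10.2 CPM, with intervals that overlapped those from 8000. They were thus low in cells with little troponin and high in cells with much, but the range from 8000 could not be ordered above the one before it. TBX3 stood at 80.5 CPM under 250 CPM of TNNT2, 86.5 CPM between 1000 and 2000, and 215 CPM from 8000. It was thus as high in cells with least troponin as in those between 1000 and 2000. TBX2 was highest in that intermediate range, at 48.7 CPM (43.4 to 54.5), and lower from 8000 upwards, at 26.2 CPM (24.4 to 28.1).

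**Figure D2:**
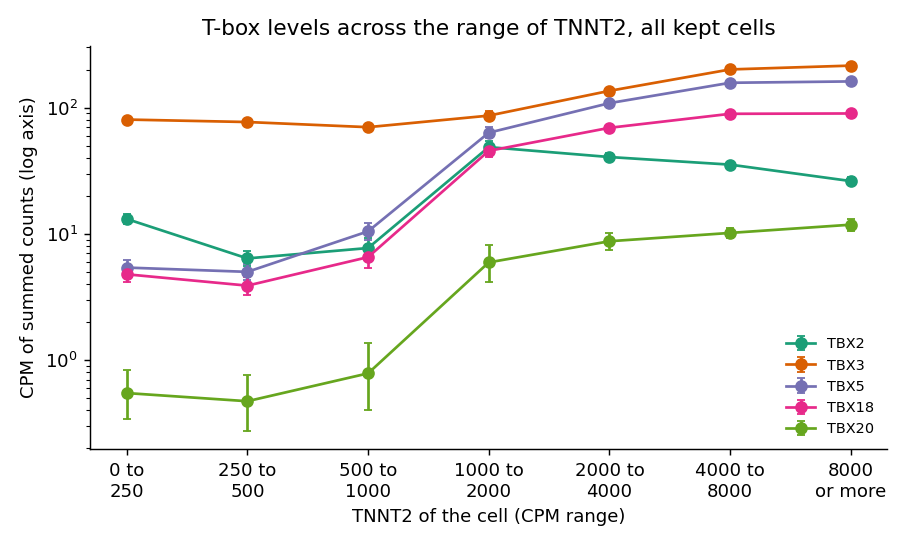
CPM of summed counts (log axis) against the TNNT2 range of the cell in CPM, over all kept cells, with 95% counting intervals as bars. TBX5, TBX18 and TBX20 are low at little TNNT2 and high at much, with overlapping intervals between 4000 and 8000 CPM and from 8000. TBX3 starts from 80.5 CPM, and TBX2 peaks at 48.7 CPM between 1000 and 2000 CPM of TNNT2.

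The number of TBX3 UMIs per cardiomyocyte covered a wide range. At 5000 UMIs per cell the variance of its UMIs was 2.78 times the mean, where random sampling of equal cells gives a value near 1. It was 1.31 times for TBX2, 1.20 times for TBX5, 1.15 times for TBX18 and 1.03 times for TBX20. This measure grows with the mean, which was higher for TBX3 than for TBX2 (0.171 UMIs per cell), so the members are not ranked by it. At least 5 TBX3 UMIs were held by 245 cardiomyocytes (4.69%), with up to 15 in a cell, against 5 epithelial-like cells (0.126%). TBX3 was thus present in many cells at a low level and in a smaller number at a high one, and in epithelial-like cells, where the variance was 1.24 times the mean, high cells were few.

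TBX3 followed CD34 protein far more than the other members did. Cardiomyocytes were divided into 4 groups of 1355 to 1403 cells by antibody-tag UMIs, with limits at 45, 85.5 and 279. From the lowest to the highest group TBX3 stood at 74.3, 100, 184 and 379 CPM, a 5.11-fold difference between the ends (4.83 to 5.40). TBX5 stood at 127, 121, 151 and 190 CPM (1.49-fold, 1.42 to 1.57), and TBX18 at 80.7, 80.3, 82.1 and 97.7 CPM (1.21-fold, 1.14 to 1.29). TBX2 and TBX20 were lower at the high end. TBX2 stood at 34.1, 38.8, 31.8 and 29.8 CPM (0.872-fold, 0.785 to 0.969), and TBX20 at 13.2, 10.1, 9.99 and 8.87 CPM (0.671-fold, 0.558 to 0.806).

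**Figure D3:**
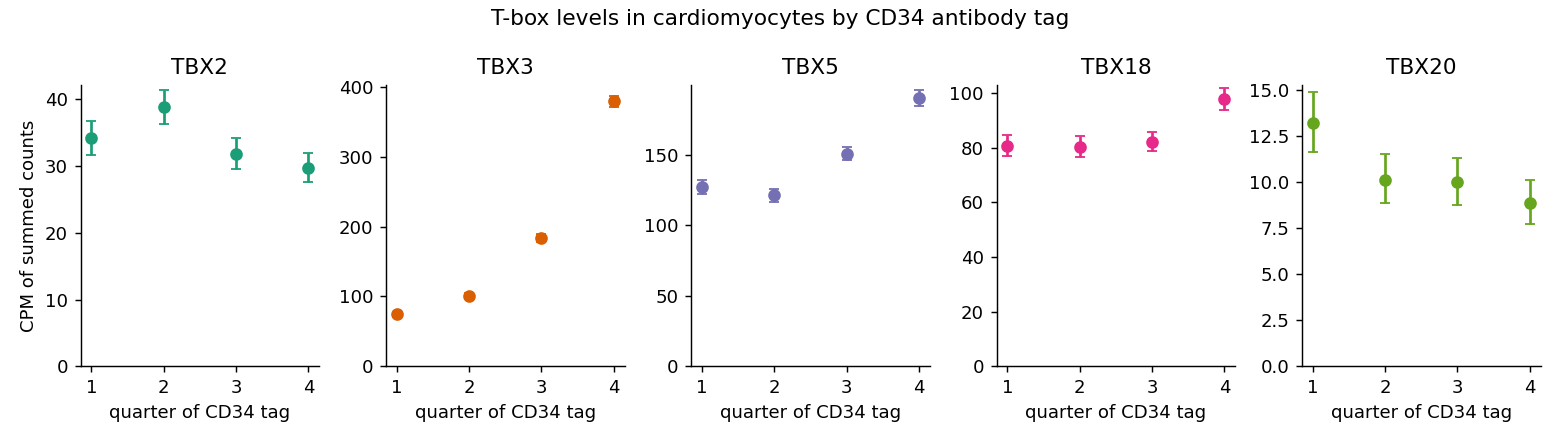
CPM of summed counts in cardiomyocytes, 1 panel per member with its own vertical axis from 0, by group of CD34 antibody-tag UMIs from lowest (1) to highest (4), with 95% counting intervals. TBX3 goes from 74.3 to 379 CPM, TBX5 and TBX18 are highest in group 4, and TBX2 and TBX20 are lower there than in group 1.

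Per cell, the median tag was 189 UMIs with a TBX3 UMI and 65 without, 112 and 82 for TBX5, and 114 and 86 for TBX18. For TBX2 it was 78 with and 94 without, and for TBX20 72.5 and 93. Median depths before thinning were close between these groups, between 15754.5 and 16985.5 RNA UMIs. In the tag groups the median depth was 14292, 16343, 16810.5 and 17064.5 RNA UMIs from lowest to highest. The median tag was 38 UMIs in epithelial-like and 65 in fibroblast-like cells, and how much of a low tag is background was not tested.

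Depth and the cell cycle also moved with some members. In the shallowest, middle and deepest cardiomyocytes, in groups of 1838 or 1839 cells, TBX3 stood at 227, 228 and 156 CPM, TBX5 at 166, 161 and 135 CPM and TBX20 at 13.9, 10.4 and 9.11 CPM. TBX18 stood at 87.6, 91.7 and 80.8 CPM, and TBX2 went slightly the other way, at 31.7, 32.3 and 35.0 CPM. In the 1153 cardiomyocytes with at least 5 UMIs over 8 cell cycle genes (20.9%), TBX3 stood at 156 CPM against 205 CPM in the others (0.764-fold, 0.736 to 0.792) and TBX18 at 75.1 against 89.2 CPM (0.843-fold, 0.799 to 0.889). TBX5 was at 0.921-fold (0.885 to 0.958), whereas the intervals for TBX2 (0.964 to 1.13) and TBX20 (0.785 to 1.06) included 1. The part of depth and cycling in the CD34 pattern was not tested.

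At full depth most cardiomyocytes held transcripts of several members. After thinning to 5000 UMIs, 915 cardiomyocytes (17.5%) held a UMI of none of the 5, 35.2% of 1 member, 32.6% of 2, 13.1% of 3 and 1.49% of 4, and 2 cells held all 5. The mean was 1.46 members per cell (SD over cells 0.977), against 0.605 in fibroblast-like and 0.351 in epithelial-like cells. At full depth the mean in cardiomyocytes was 2.57, 4.30% of cells held none, and 96 cells (1.74%) held all 5, so an absent UMI at 5000 is often a matter of depth. Apart from cells with none, the most frequent combination was TBX3 with TBX5, in 704 cells (13.5%), followed by TBX5 alone in 690, TBX3 alone in 539, TBX18 alone in 402 and TBX3 with TBX5 and TBX18 in 395. Median CD34 tag was 211.5 UMIs for TBX3 with TBX5 and 253 for TBX3 with TBX5 and TBX18, but 137 for TBX3 alone, 69 for TBX5 alone, 63 for TBX18 alone and 57 for TBX2 alone.

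For each of the 10 pairs the share of cardiomyocytes with both members was set against the product of the single shares, which is the share if they were unrelated. TBX3 and TBX5 were found together in 1316 cells (25.2%), 1.14 times the product (1.09 to 1.19). TBX5 was present in 56.9% of cells with TBX3 and 44.4% of cells without. The same ratio was 1.14 in cells not cycling and 1.15 in cycling cells, and between 1.13 and 1.14 in the 3 depth groups. TBX3 and TBX18 were together in 15.6%, 1.08 times the product (1.01 to 1.15), with TBX18 in 35.2% of cells with TBX3 and 30.7% of cells without. TBX2 and TBX3 were together less than the product, at 0.886 times (0.788 to 0.992), and TBX2 and TBX20 at 0.521 times on 20 cells (0.318 to 0.804).

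Thinning draws UMIs at random, so the same ratios were also averaged over all possible draws. The average was 1.16 (1.10 to 1.21) for TBX3 and TBX5, and the interval reached past 1 for the other 3 of those pairs. It was 1.05 for TBX3 and TBX18 (0.988 to 1.12), 0.898 for TBX2 and TBX3 (0.799 to 1.01) and 0.773 for TBX2 and TBX20 (0.516 to 1.11). At full depth TBX2 and TBX3 were together 1.01 times the product. Cells differ in depth there, and the part of this in the full-depth ratios was not tested. TBX3 with TBX18 was also clear of 1 at full depth, at 1.07 (1.04 to 1.10). So was TBX5 with TBX18, at 1.05 (1.03 to 1.08), while all remaining intervals except that of TBX3 with TBX5 included 1. Only the excess of TBX3 with TBX5 was thus present in the draw, in the average and at full depth with an interval clear of 1. For the 6 other pairs the interval of the draw included 1. Their values were 0.906 for TBX2 with TBX18, 0.935 for TBX3 with TBX20, 1.02 for TBX2 with TBX5, 1.03 for TBX5 with TBX18 and with TBX20, and 1.13 for TBX18 with TBX20. Across the 5516 cardiomyocytes, which share 1 library and differ in depth, Pearson's r of log-scaled levels was 0.295 for TBX3 with TBX5 and 0.131 for TBX5 with TBX18, and within 0.08 of 0 for the other pairs.

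**Figure D4:**
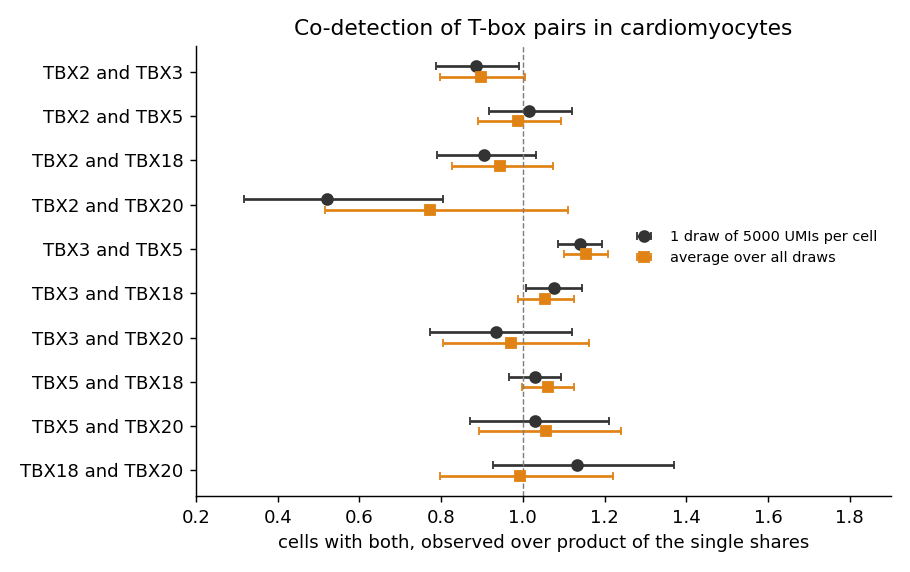
Cardiomyocytes with a UMI of both members, as observed over the product of the single shares, for 1 draw of 5000 UMIs per cell (circles) and the average over all draws (squares), with 95% counting intervals and a dashed line at 1. TBX3 with TBX5 lies at 1.14 and 1.16, and the intervals of the average include 1 for TBX2 with TBX3 and for TBX2 with TBX20.

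Genes known to be repressed by TBX2 or TBX3 were compared between cardiomyocytes with and without a UMI of each member. This list and those below were chosen with earlier results of these data known, so their counts are a description and carry no test. Of 9 listed, 4 reached 10 CPM, namely NPPA, GJA5, SMPX and CDKN1A. Of these NPPA and GJA5 were lower with TBX2, at a ratio of 0.8 or less, and none higher at the reciprocal or more, beside 4.75% and 6.35% of the 9054 genes measured. With TBX3, 1, GJA5, was lower and none higher, beside 5.61% and 4.64% of 9059. With TBX18, NPPA and GJA5 were lower and none higher, beside 3.99% and 1.97% of 9023, and with TBX5 1, CDKN1A, was lower and none higher, beside 3.15% and 1.94% of 9019. With TBX20, 3 (NPPA, GJA5 and CDKN1A) were higher and none lower, beside 10.4% and 10.7% of 9223. The average over all draws gave 2 lower with TBX2, 1 lower with TBX3, 1 lower with TBX18, NPPA alone higher with TBX5 and 2 higher with TBX20. Of 11 working myocardium genes of TBX5 and TBX20, which include NPPA and GJA5, 8 were measured. The shares of all genes are those given above. With TBX5 none passed either limit, and with TBX20 3 were higher and none lower. With TBX2 and with TBX3 2 each were lower, with TBX18 3, and none higher. The average gave 1 higher with TBX5, 3 higher with TBX20 and 2 lower with each of TBX2, TBX3 and TBX18.

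Several of these genes were concentrated in few cells, so that their intervals, which cover counting error only, are too narrow throughout. The top 1% of thinned cardiomyocytes held 28.9% of the UMIs of GJA5, 29.8% of those of NKX2-5 and 31.3% of those of HAND1. GJA5 stood at 13.6 CPM in the 722 cardiomyocytes with TBX2 and 23.5 CPM in the others, a ratio of 0.578 (0.422 to 0.775), and the average over all draws was 0.419. With TBX3 it stood at 14.8 against 27.9 CPM, a ratio of 0.529 (0.440 to 0.634), with an average of 0.419. With TBX20 it stood at 56.1 against 20.2 CPM, a ratio of 2.78 (2.16 to 3.53), with an average of 2.16. With TBX5 the ratio was 0.997 (0.844 to 1.18). The repressors and TBX20 thus lay on opposite sides for this gap junction gene, while cells with and without TBX5 could not be told apart.

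GJA5 was then split by both repressors. It stood at 29.7 CPM (26.8 to 32.9) in the 2475 cells with neither TBX2 nor TBX3, 17.8 CPM (12.6 to 24.3) in the 439 with TBX2 only, 15.9 CPM (13.5 to 18.5) in the 2030 with TBX3 only and 7.07 CPM (3.39 to 13.0) in the 283 with both, the last on 10 UMIs. The averages over all draws were 34.2, 13.4, 14.0 and 6.20 CPM in the same order. In the draw the interval for TBX2 only overlapped those for TBX3 only and for both, so TBX2 only could not be ordered against either. Cells with both lay below those with TBX3 only, by intervals that are too narrow for this gene. Cells with neither lay above the other 3 states. BMP4, a growth factor that acts upstream of TBX2 and TBX3 in the heart, ran the other way, at 163, 230, 290 and 349 CPM.

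**Figure D5:**
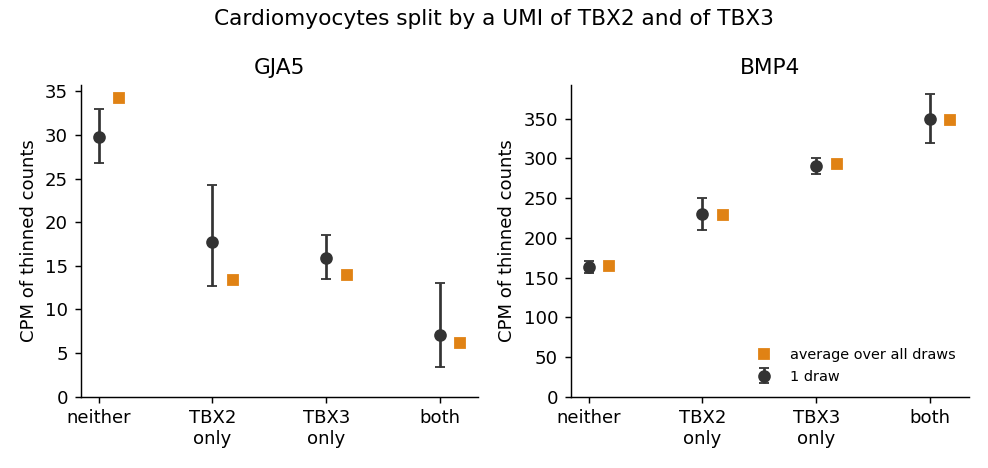
CPM of thinned counts of GJA5 and BMP4 in cardiomyocytes with neither TBX2 nor TBX3, TBX2 only, TBX3 only or both, for 1 draw (circles, 95% counting intervals) and the average over all draws (squares). GJA5 goes from 29.7 to 7.07 CPM, while BMP4 goes from 163 to 349 CPM.

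NPPA, a marker of chamber muscle, separated the repressors from each other. It stood at 232 CPM with TBX2 and 520 CPM without (0.447, 0.416 to 0.479), but at 479 and 481 CPM with and without TBX3 (0.996, 0.961 to 1.03). It stood at 819 against 461 CPM with TBX20 (1.78, 1.67 to 1.89), 519 against 441 CPM with TBX5 (1.18, 1.14 to 1.22) and 338 against 550 CPM with TBX18 (0.615, 0.590 to 0.641). The top 1% of cardiomyocytes held 21.8% of NPPA UMIs. The share of cells with an NPPA UMI was 36.8% with and 49.99% without TBX2, and 48.1% with and 48.2% without TBX18, so the TBX18 difference was one of level among positive cells. With TBX3 the share was 51.9% (49.9 to 54.0) against 45.2% without (43.4 to 47.0), although the CPM were alike. It was 50.1% against 46.3% for TBX5 and 55.4% against 47.8% for TBX20.

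NKX2-5, the homeobox factor that drives chamber identity and is low in the head of the sinoatrial node, differed most by TBX18. It stood at 5.50 CPM in cardiomyocytes with TBX18 and 39.1 CPM in those without, a ratio of 0.141 (0.102 to 0.189). An NKX2-5 UMI was present in 1.87% and 11.3% of those cells. Seen from the other side at full depth, TBX18 stood at 34.7 CPM in the 776 cardiomyocytes with an NKX2-5 UMI and 94.7 CPM in the 4740 without (0.366-fold, 0.333 to 0.402). TBX3 was also lower with NKX2-5, at 138 against 202 CPM (0.679-fold, 0.648 to 0.712), as was TBX5, at 131 against 152 CPM (0.864-fold, 0.822 to 0.907), whereas TBX20 was higher, at 16.4 against 9.35 CPM (1.75-fold, 1.50 to 2.04), and the interval for TBX2 (0.965 to 1.17) included 1. TBX18 and TBX20 thus lay at opposite ends with respect to NKX2-5.

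When cells with an NKX2-5 UMI were left out, an alternative chosen after seeing the data, the log2 ratio between cells with and without TBX18 went from -0.40 to -0.05 for GJA5. For this gene it went from -0.92 to -0.84 for TBX3, from -0.79 to -0.92 for TBX2 and from 1.47 to 1.29 for TBX20. For NPPA it went from -0.70 to -0.22 for TBX18, from -1.16 to -0.76 for TBX2, from 0.83 to 0.38 for TBX20 and from -0.01 to 0.31 for TBX3. For GJA5 the values with TBX2, TBX3 and TBX20 moved within their counting intervals and the value with TBX18 moved outside it. For NPPA each of the values given moved outside its interval. Over both genes and all 5 members, 6 values moved outside and 4 did not, by intervals that are too narrow for these genes. Whether the members differ in this respect was not tested.

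Among 11 partner transcription factors, all measured, 3 were lower with TBX3 and none higher, beside 5.61% and 4.64% of all genes measured. Besides NKX2-5 these were GATA5, at 14.9 against 25.6 CPM (0.581, 0.482 to 0.698), and MEIS2, at 176 against 229 CPM (0.769, 0.727 to 0.813). With TBX18, 2 were lower and none higher, beside 3.99% and 1.97%. They were NKX2-5 and HAND1, the second at 16.5 against 35.1 CPM (0.470, 0.389 to 0.565). In the draw HAND1, a factor of the early left ventricle, was also the 1 partner lower with TBX2 (0.716, 0.559 to 0.906), beside 4.75% of all genes. It was the 1 lower with TBX5 (0.611, 0.526 to 0.710), beside 3.15%. None was higher with either, beside 6.35% and 1.94%. The average over all draws gave 1 lower with TBX2, HAND1 (0.677), and 1 higher, MEIS2, at 245 against 196 CPM. With TBX5 the average gave 2 lower, HAND1 (0.653) and GATA5 (0.776), and none higher. In the draw HAND1 was also lower with TBX20 (0.458, 0.274 to 0.720, on 19 UMIs), and stood at 1.23 with TBX3 (1.06 to 1.42). With TBX20, 3 partners were higher, beside 10.4% of all genes, namely NKX2-5 (1.996, 1.55 to 2.54), GATA5 (1.30, 0.902 to 1.81) and GATA6 (1.26, 1.15 to 1.37), and 2 were lower, beside 10.7%. The average over all draws gave 2 higher, with GATA6 at 1.14. ISL1, which marks second heart field and pacemaker cells, was lower with TBX20, at 43.9 against 70.8 CPM (0.619, 0.472 to 0.80). SHOX2, the homeobox factor of the sinoatrial node, was between 1.01 with TBX20 and 1.10 with TBX18 (1.06 to 1.14) in the draw. By the average over all draws it was between 0.955 with TBX2 and 1.09 with TBX18.

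Of 12 sinus node genes, all measured, 6 were higher and 2 lower with TBX3, beside 4.64% and 5.61% of all genes measured. The list was chosen with earlier results of these data known and shares BMP4 with the BMP list below, so these counts carry no test. KCNJ5, which with KCNJ3 forms the potassium channel opened by acetylcholine, stood at 61.1 against 23.6 CPM (2.59, 2.27 to 2.95), while KCNJ3 stood at 41.5 against 52.1 CPM (0.797, 0.709 to 0.894). CACNA1D, a calcium channel of pacemaking, stood at 130 against 89.1 CPM (1.45, 1.35 to 1.57), and HCN4, the pacemaker current channel, at 111 against 88.3 CPM (1.26, 1.16 to 1.36). The other 3 higher genes were BMP4, CPNE5 and VSNL1, and the other lower one was RGS6. By the average over all draws 5 were higher and 1 lower, with HCN4 at 1.24 and KCNJ3 at 0.844. With TBX5, 3 of the 12 were higher and none lower, beside 1.94% and 3.15%, namely KCNJ5 (1.51), BMP4 (1.29) and HCN4 (1.26). The average over all draws also gave 3, but with HCN4 at 1.15 and CACNA1D at 1.31.

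Of the BMP pathway, 10 of 12 genes were measured, and 4 were higher with TBX3 and none lower, beside 4.64% and 5.61% of all genes measured. The average over all draws gave 5 higher, MSX2 (1.28) being added. The 4 were the ligands BMP5, at 349 against 196 CPM (1.78, 1.70 to 1.87), BMP4, at 297 against 173 CPM (1.72, 1.63 to 1.81), and BMP2, at 70.0 against 49.8 CPM (1.41, 1.27 to 1.56), and the BMP target ID1, at 409 against 271 CPM (1.51, 1.45 to 1.57). With TBX5, BMP4 (1.29) and BMP5 (1.26) were higher and none was lower, beside 1.94% and 3.15% of all genes measured. The average over all draws gave 3 higher with TBX5, BMP2 (1.27) being added. With TBX2, 2 of the 10 were higher and none lower, beside 6.35% and 4.75% of all genes measured. They were BMP4, at 276 against 221 CPM, and MSX2, at 23.0 against 16.5 CPM (1.40). The average over all draws gave 1 higher with TBX2, MSX2 (1.52). With TBX20, 1 was higher and 1 lower, beside 10.4% and 10.7%, while the average gave 2 higher and none lower. None of the 10 passed either limit with TBX18.

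The genes most like each member across cardiomyocytes were found by Pearson's r among 3058 genes with at least 50 CPM, as a description over 5516 cells of 1 library that share depth. For TBX3 they were MYH11 (0.46), BMP5 (0.43), ALDH1A1 (0.42) and PAM (0.41), and the lowest were AL136171.2 (-0.34) and NREP (-0.32). For TBX5 they were BMP5 (0.30), MYH11 (0.29), TTN (0.29) and MYH6 (0.25), with TMSB4X (-0.26) and SPARC (-0.22) lowest. For TBX18 they were ATP2A2 (0.27), SLC8A1 (0.25), TTN (0.23) and MYH6 (0.22), with IGFBP7 and ACTG1 lowest (both -0.17). MYH11 is a smooth muscle myosin, and TTN, MYH6, ATP2A2 and SLC8A1 serve the sarcomere and calcium handling.

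For TBX2 the most like genes were HEBP2 (0.28), ADAMTS19 (0.25), KCNG1 (0.24) and FREM2 (0.23), and the least like were TNNI3 (-0.20), the mature cardiac troponin I, and NPPA (-0.16). No gene reached r of 0.14 for TBX20, which is too sparse for this measure. Its nearest genes were AL136171.2 (0.13), SFRP1 (0.11), LDB3 (0.10) and ADCY5 (0.10), and the lowest ANXA2 and TMSB10 (both -0.09). AL136171.2 was thus the lowest gene for TBX3 and the highest for TBX20.

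The rest of the family was nearly silent. Of 12 other T-box genes only MGA reached 10 CPM, at 44.9, 43.8 and 44.3 CPM in cardiomyocytes, fibroblast-like and epithelial-like cells, and so without the class pattern of the 5 members. TBX1 stood at 1.38, 1.64 and 0.279 CPM. TBX15 stood at 3.11 CPM in epithelial-like cells and 0.25 CPM in cardiomyocytes. No UMI of TBXT, TBX4, TBX10 or TBX21 was found in cardiomyocytes, where 3 UMIs, the limit used here for a count of 0, correspond to 0.0326 CPM and the exact Poisson upper bound to 0.0401 CPM.

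The antisense genes beside TBX2 and TBX5 were also counted. TBX2-AS1 (chromosome 17, 61393456 to 61399606) lies next to TBX2 without overlap, and stood at 26.5, 11.9 and 0.975 CPM in cardiomyocytes, fibroblast-like and epithelial-like cells. TBX2 itself was higher in fibroblast-like cells than in cardiomyocytes, so the neighbours were not ordered alike. Among cardiomyocytes TBX2-AS1 stood at 54.0 CPM with a TBX2 UMI and 23.5 CPM without (2.30, 1.94 to 2.72). TBX5-AS1 (chromosome 12, 114408195 to 114412832) overlaps the first bases of TBX5 and stood at 50.4, 5.26 and 1.21 CPM. Its ratio with TBX5 was 1.14 (1.02 to 1.27). Whether counting used strand is not given in the sources used here, so reads from the overlap cannot be assigned with certainty.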

How the data were processed

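The authors deposited whole-number UMI counts per gene and per CD34 antibody tag, made with Cell Ranger 6.1.2 on GRCh38 per the submitters' processing notes; no normalization was recorded. The members and gene lists were chosen with earlier results of these data known. Cells were filtered and classed by the rules in the text. Of 14829 barcodes, 1975 had under 1000 genes, 1207 over 25% mitochondrial UMIs and 908 over 35000 UMIs. The median depth of the kept cells was 16607 RNA UMIs. No doublet caller was used beyond the upper limit, and Scrublet in scanpy 1.11.5 was an alternative. Counts were summed per class and scaled to CPM, with exact Poisson intervals, exact conditional intervals for ratios and Clopper-Pearson intervals for shares (scipy 1.17.1, numpy 2.4.6). Thinning used 1 seeded draw of 5000 UMIs per cell, and averages over all draws came from the hypergeometric distribution. Correlations used log(1 + CPM/100). Named genes were the members, the lists, and per member the 4 genes with the highest and 2 with the lowest r, leaving out mitochondrial and ribosomal protein genes, TNNT2 and the other members. One listed gene is not reported here. The scripts were tested on simulated data. Alternatives changed class limits, filters, thinning and doublet treatment.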

Additional observations from a re-analysis of the deposited data

How the results depend on the processing

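Except for the values given here, the class ratios, shares and pair ratios named in the text differed by less than their counting intervals under each alternative run. The log2 ratio of cardiomyocytes to epithelial-like cells became 5.17 for TBX2, 1.28 for TBX3, 5.63 for TBX5 and 5.45 for TBX18 without doublet calls. For TBX3 it was 1.33 with cardiomyocytes from 4000 CPM of TNNT2, 1.35 with at most 15% mitochondrial UMIs and 1.31 without cycling cells. Without an upper limit on UMIs it was 1.14 for TBX3 and 4.93 for TBX18. Against fibroblast-like cells TBX3 became 1.38, 1.39 and 1.17 with the TNNT2 limit, the mitochondrial limit and no upper limit. With fibroblast-like cells from 4000 CPM of COL1A1, TBX2 became -0.77 and TBX18 4.23.

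The share of cardiomyocytes with a UMI depends on depth. For TBX2, TBX3, TBX5, TBX18 and TBX20 it was 9.09%, 34.1%, 35.1%, 21.7% and 3.21% at 3000 UMIs, 22.6%, 58.2%, 71.4%, 52.3% and 9.83% at 10000, and 30.9%, 65.6%, 81.7%, 64.2% and 14.5% without thinning. With the TNNT2 limit it was 12.8% for TBX2, 46.3% for TBX3 and 51.4% for TBX5. It was 51.3% for TBX5 and 34.3% for TBX18 without doublet calls, 14.9% for TBX2 and 46.9% for TBX3 with the mitochondrial limit, and 48.5% for TBX5 without the upper limit.

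The log2 of observed over product at 3000 UMIs was 0.27 for TBX3 with TBX5, 0.18 for TBX3 with TBX20 and -0.17 for TBX18 with TBX20. Without thinning it was 0.11 for TBX3 with TBX5, 0.066 for TBX2 with TBX18 and -0.15 for TBX2 with TBX20, and it changed sign for TBX2 with TBX3, at 0.015. TBX2 with TBX18 without thinning, and TBX3 with TBX20 and TBX18 with TBX20 at 3000 UMIs, also lay on the other side of 0 from the draw, whose intervals included 0. The cause was not tested. The mean number of members per cardiomyocyte without thinning was 2.57. The ratios of GJA5, NKX2-5 and NPPA with and without each member were rerun under alternatives chosen after seeing the data. Of these values 17 moved past their counting interval and 53 did not. The log2 ratio ranged from 0.16 to 0.81 for NPPA with TBX5, -0.74 to -0.22 for NPPA with TBX18, -1.31 to -0.76 for NPPA with TBX2, 0.38 to 0.91 for NPPA with TBX20 and -0.05 to 0.31 for NPPA with TBX3. For GJA5 it ranged from -1.40 to -0.79 with TBX2, -1.26 to -0.84 with TBX3 and -0.57 to -0.05 with TBX18. For NKX2-5 it ranged from -0.96 to -0.58 with TBX3 and -0.20 to 0.10 with TBX5. No paired analysis was possible because the series holds 1 culture.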

Other observations

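The 1032 cells outside the 3 classes, with a median of 12400.5 RNA UMIs, held all 5 members. TBX2 stood there at 35.2 CPM (32.1 to 38.4), TBX3 at 56.3 CPM (52.5 to 60.3), TBX5 at 36.4 CPM (33.4 to 39.7), TBX18 at 33.2 CPM (30.3 to 36.3) and TBX20 at 4.09 CPM (3.10 to 5.28). TBX3 was lower there than in any of the 3 classes. Epicardial markers summed to 1166 CPM in these cells, of which ITLN1 alone gave 815 CPM, with a UMI in 19.5% of them without thinning. The same markers summed to 158 CPM in fibroblast-like cells. Their part in these levels was not tested.

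Of 597 thinned fibroblast-like cells, 132 held TBX2, 161 held TBX3 and 24 held both (4.02%, 2.59% to 5.92%). The product of the single shares was 5.96%, so the ratio was 0.674 (0.435 to 0.993) in this draw. The intervals of all other pairs in these cells included 1, with TBX3 and TBX5 at 1.53 (0.927 to 2.37). The pairs were not averaged over all draws outside cardiomyocytes. In cardiomyocytes both were held by 5.41%.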
